A study of Mus musculus with 12 samples.

Results

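The genes described here encode the enzymes that modify and crosslink collagen and elastin: the lysyl oxidases Lox, Loxl1, Loxl2, Loxl3 and Loxl4, the lysyl hydroxylases Plod1, Plod2 and Plod3, and the prolyl hydroxylase subunits P4ha1 and P4ha2. They were followed on 12 microarrays of sorted mouse lung fibroblasts. Of these 10 genes, 9 had at least 1 probe set that the array's annotation gives to that gene alone, among 17097 genes with such a probe set. P4ha1 had none and is only named. The 9 genes had 15 probe sets in all, and each gene is given by the probe set that had the highest mean signal. All 9 passed the filter on low values, which 11073 genes passed.

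Every animal carried a GFP reporter of Pdgfra, the gene for the PDGF receptor that marks lung fibroblasts. GFP-bright and GFP-dim cells were sorted from dispase-digested lungs 5 days after surgery, 2000 per sample. SHAM animals had a sham operation, and PNX animals a partial pneumonectomy, after which the remaining lung regrows. PNX-dnFGFR animals had the same pneumonectomy and expressed a dominant-negative form of FGF receptor 2. No sham group is labelled with that receptor, so PNX-dnFGFR differs from SHAM both in surgery and in genotype. Each of the 6 groups, bright or dim under 1 of 3 conditions, had 2 arrays. Strain, age, sex, the promoter that drives the dominant-negative receptor, and whether a sample is 1 animal or a pool were not given in the sources used here, so p-values measure the spread between these samples.

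Collagen chains are hydroxylated on proline and lysine in the endoplasmic reticulum: prolyl 4-hydroxylation makes the triple helix stable at body temperature, and lysyl hydroxylation prepares sites for sugar attachment and for stable crosslinks. After secretion, lysyl oxidases, which need copper, convert lysine and hydroxylysine side chains to aldehydes, which then join neighbouring collagen or elastin molecules. In the lung these enzymes are known for building the elastic fibres and collagen of the alveolar septa, and for stiffening the matrix in fibrosis.

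Promoter sequence was read from RefSeq (GRCm38.p6), whose table held 5 of the 10 genes. The 4 of them that were also measured are shown: Loxl4 and P4ha2, higher in bright arrays, Plod3, higher by a small difference, and Plod1, lower in bright arrays. The windows are the 250 bases upstream of the gene's start, written 5′ to 3′ on the gene's strand: Loxl4 at chr19:42612807-42613056 (minus strand), P4ha2 at chr11:54100674-54100923 (plus), Plod1 at chr4:147936777-147937026 (minus) and Plod3 at chr5:136986769-136987018 (plus). Capitals mark matches, on either strand, to the core of the hypoxia response element (ACGTG), the AP-1 element (TGANTCA) or the SMAD binding element (CAGAC).
Loxl4: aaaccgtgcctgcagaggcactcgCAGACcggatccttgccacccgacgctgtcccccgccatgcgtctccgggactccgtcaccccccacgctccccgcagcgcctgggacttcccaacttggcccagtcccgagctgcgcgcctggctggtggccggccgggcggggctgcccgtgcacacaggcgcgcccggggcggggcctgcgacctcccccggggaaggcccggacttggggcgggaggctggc
P4ha2: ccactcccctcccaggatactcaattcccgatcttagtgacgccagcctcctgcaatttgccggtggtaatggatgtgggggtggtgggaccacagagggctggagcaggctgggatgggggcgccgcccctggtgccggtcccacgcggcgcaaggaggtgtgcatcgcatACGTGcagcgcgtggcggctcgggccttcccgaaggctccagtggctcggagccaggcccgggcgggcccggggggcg
Plod1: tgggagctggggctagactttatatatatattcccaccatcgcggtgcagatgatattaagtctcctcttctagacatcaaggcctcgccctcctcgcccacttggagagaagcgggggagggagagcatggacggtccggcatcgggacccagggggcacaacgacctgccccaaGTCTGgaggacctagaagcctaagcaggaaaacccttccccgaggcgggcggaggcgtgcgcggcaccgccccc
Plod3: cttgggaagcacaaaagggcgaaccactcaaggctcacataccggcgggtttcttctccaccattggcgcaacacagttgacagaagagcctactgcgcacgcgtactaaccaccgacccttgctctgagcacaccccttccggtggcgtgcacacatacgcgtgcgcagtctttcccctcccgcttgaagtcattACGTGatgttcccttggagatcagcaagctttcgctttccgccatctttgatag
P4ha2 and Plod3 each held 1 ACGTG, 78 and 54 bases upstream of the start. Loxl4 held 1 CAGAC, 226 bases upstream, and Plod1 held it on the other strand (GTCTG), 74 bases upstream. None of the 4 windows held TGANTCA. Over windows of the same length for all 32851 promoters of the table, ACGTG was found in 16.6%, CAGAC in 42.2% and TGANTCA in 6.75%. The matches describe these letters only.

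Values are log2 signals, so a difference of 1 is a doubling. They compare arrays for 1 probe set and do not rank the genes against each other. Array medians lay between 5.06 and 5.13. All 9 fibroblast markers had a probe set, and their mean lay at 9.55 to 9.87 on bright and 9.02 to 9.24 on dim arrays, while 5 of the 9 were called higher and 4 lower in bright arrays. Lum and Dcn were higher, by 5.77 and 5.05, with Lum at 2.34 to 3.06 on dim arrays, under the filter's level. Tcf21 (-2.71), Npnt (-1.92) and Inmt (-0.58) were lower. Pdgfra itself was also lower on the arrays labelled bright, at 4.84 to 5.54 against 6.66 to 7.13 (difference -1.75 ± 0.10 SE, adjusted p = 9.9e-07). Its bright PNX arrays, at 4.84 to 5.08, lay under the filter's level. This direction is opposite to the reporter's labels, so "bright" and "dim" here mean arrays so labelled. Acta2, the smooth muscle actin of myofibroblasts, was higher on bright arrays, at 8.14 to 10.11 against 6.53 to 7.55 (2.15 ± 0.26, adjusted p = 0.00013). Sftpc, an alveolar epithelial gene, lay at 11.36 to 12.43 on all 12 arrays, but the epithelial marker Cdh1 lay at 2.56 to 3.92, under the filter's level. The mean of the 10 epithelial markers with a probe set lay at 6.37 to 8.03.

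The subsets differed for 7 of the 9 genes, with Plod3 passing narrowly (0.22, adjusted p = 0.047) and its call lost with no filter. The lysyl oxidases Loxl2, Loxl3 and Loxl4 and the prolyl hydroxylase P4ha2 were higher in bright arrays, Loxl2 by 3.36-fold, Loxl4 by 2.97-fold, Loxl3 by 2.43-fold and P4ha2 by 1.54-fold as the mean over the 3 conditions. Lox was lower in bright arrays, by 1.52-fold, and among the single conditions it passed in SHAM alone. In all, limma called 5 of the 9 genes higher in bright arrays, where 28.5% of all genes tested were called higher, and 2 lower, where 19.3% were called lower. A call is an adjusted p below 0.05 over all 11073 genes. The median difference of the 9 genes was 0.22, against 0.05 over all genes. Arrays of the subsets did not overlap, bright above dim, for 2 of the 9 genes (Loxl2 and Loxl3), against 14.1% of all genes.

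**Figure D1:**
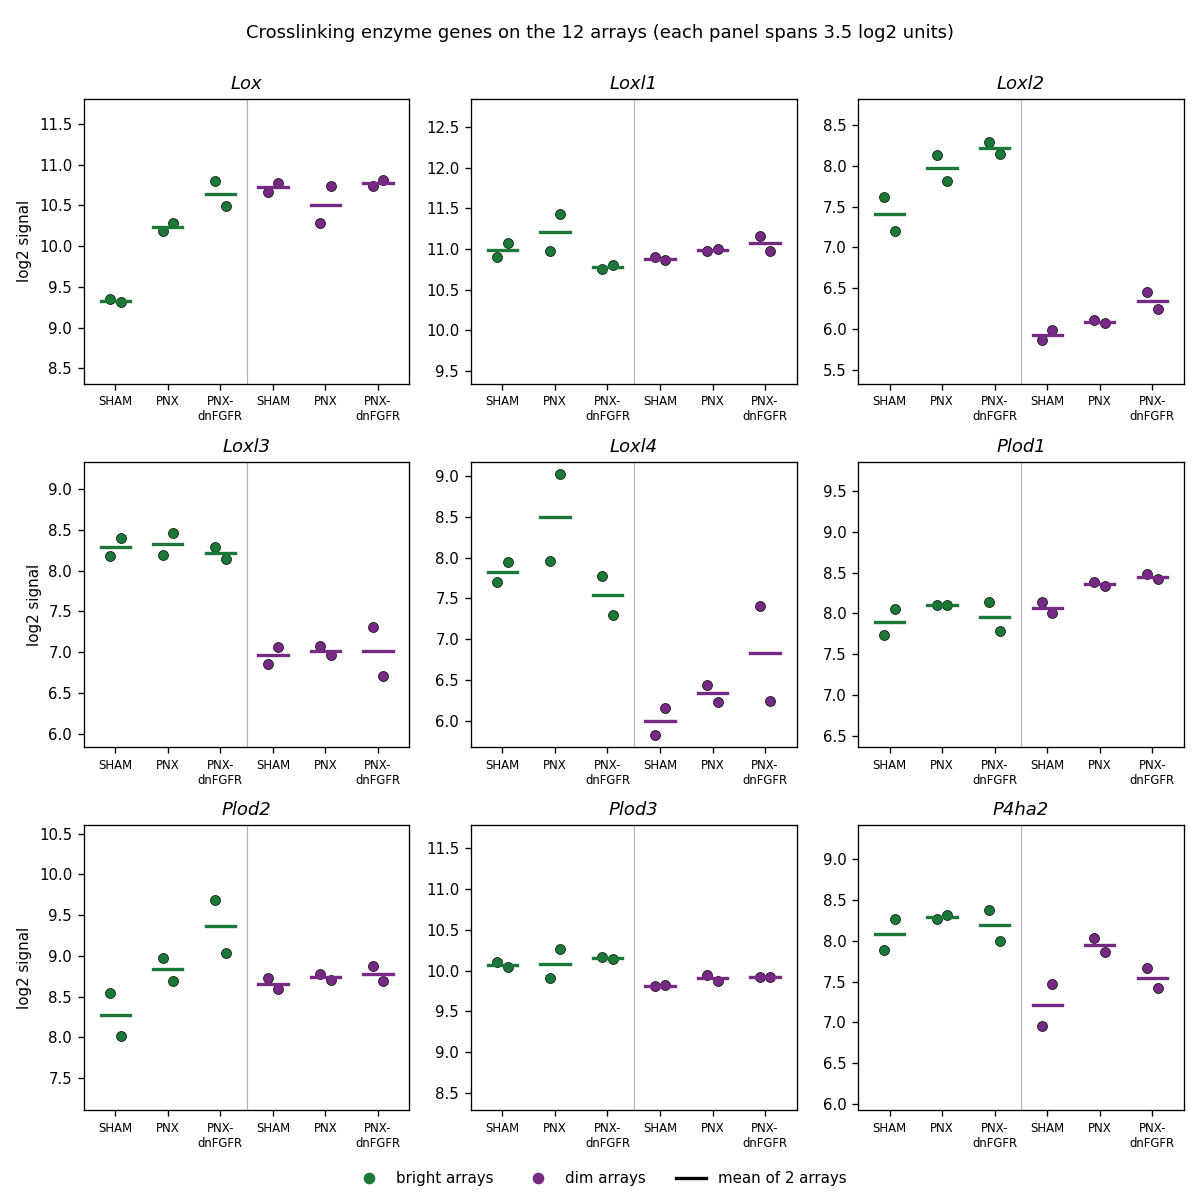
Log2 signal (y axis) of each of the 9 measured genes on the 12 arrays, by condition (x axis), with bright arrays in green and dim arrays in purple. Points are arrays and horizontal lines are means of 2 arrays. Loxl2 and Loxl3 separate the subsets on every array, and Lox in the bright SHAM arrays, at 9.31 and 9.35, lies below all its other values.

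Lox, the founding lysyl oxidase, acts on both fibrillar collagen and elastin. In bright arrays it measured 9.35 and 9.31 in SHAM, 10.19 and 10.28 in PNX, and 10.80 and 10.49 in PNX-dnFGFR. In dim arrays it measured 10.67 and 10.78 in SHAM, 10.28 and 10.74 in PNX, and 10.74 and 10.81 in PNX-dnFGFR. The bright SHAM arrays were the lowest of the 12, the order within the bright subset ran SHAM, PNX, PNX-dnFGFR with no overlap between them, and dim SHAM overlapped both other dim groups. From the highest mean down, the groups ran dim PNX-dnFGFR (10.77), dim SHAM (10.73), bright PNX-dnFGFR (10.65), dim PNX (10.51), bright PNX (10.23) and bright SHAM (9.33). In that order neighbouring pairs overlapped except dim PNX and bright PNX, apart by less than the second decimal, and the last pair. Among sham-operated animals Lox was lower in bright than in dim arrays by -1.40 ± 0.17 (adjusted p = 0.0006). The same difference was -0.27 ± 0.17 after PNX (adjusted p = 0.32), and -0.13 ± 0.17 for PNX-dnFGFR (adjusted p = 0.6). The other well measured Lox probe set had the same pattern, with 7.25 to 7.50 in bright SHAM and 8.95 to 9.08 in dim SHAM (difference -1.64, adjusted p = 0.0015). The last of its 3 probe sets lay at 2.30 to 2.71 on all arrays, below the filter's level of 5.101.

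Loxl1, which is needed for elastic fibre renewal, was at a similar signal throughout. It measured 10.90 and 11.07 in bright SHAM, 10.98 and 11.43 in bright PNX, and 10.76 and 10.81 in bright PNX-dnFGFR. The dim arrays read 10.90 and 10.86 in SHAM, 10.98 and 11.00 in PNX, and 11.16 and 10.98 in PNX-dnFGFR. In the order of the means, from bright PNX (11.21) through dim PNX-dnFGFR (11.07), dim PNX (10.99), bright SHAM (10.98) and dim SHAM (10.88) to bright PNX-dnFGFR (10.79), neighbours overlapped except the last pair. The subset difference was 0.01 ± 0.09, with a 95% interval of -0.20 to 0.22 (adjusted p = 0.93). Its second probe set gave 0.07 (adjusted p = 0.56).

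Loxl2 oxidizes the basement membrane collagen type IV as well as fibrillar collagens. It measured 7.62 and 7.20 in bright SHAM, 8.14 and 7.81 in bright PNX, and 8.29 and 8.15 in bright PNX-dnFGFR. In dim arrays it measured 5.86 and 5.99 in SHAM, 6.11 and 6.07 in PNX, and 6.45 and 6.24 in PNX-dnFGFR. No 2 of the 6 groups overlapped: every bright array lay above every dim one, and within each subset PNX-dnFGFR lay above PNX and PNX above SHAM. Group means ran from 8.22 in bright PNX-dnFGFR through 7.97, 7.41, 6.35 and 6.09 to 5.92 in dim SHAM. It was higher in bright arrays under each condition: by 1.49 ± 0.18 for SHAM (adjusted p = 0.00051), by 1.88 ± 0.18 for PNX (adjusted p = 0.00015), and by 1.87 ± 0.18 for PNX-dnFGFR (adjusted p = 9.2e-05).

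Loxl3, a lysyl oxidase needed for palate and spine development, differed between the subsets with little spread within them. It measured 8.18 and 8.40 in bright SHAM, 8.19 and 8.46 in bright PNX, and 8.29 and 8.14 in bright PNX-dnFGFR. In dim arrays it measured 6.86 and 7.06 in SHAM, 7.08 and 6.96 in PNX, and 7.31 and 6.71 in PNX-dnFGFR. All groups of a subset overlapped, and the only gap in the order was between the lowest bright group (PNX-dnFGFR, 8.22) and the highest dim group (PNX, 7.02). Bright exceeded dim by 1.33 ± 0.21 for SHAM (adjusted p = 0.002), by 1.31 ± 0.21 for PNX (adjusted p = 0.0022), and by 1.21 ± 0.21 for PNX-dnFGFR (adjusted p = 0.002).

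Loxl4, a lysyl oxidase close to Loxl2 and Loxl3 in domain makeup, had the widest range of group means in the family, 2.51. It measured 7.70 and 7.95 in bright SHAM, 7.96 and 9.03 in bright PNX, and 7.78 and 7.30 in bright PNX-dnFGFR. In dim arrays it measured 5.82 and 6.16 in SHAM, 6.44 and 6.23 in PNX, and 7.41 and 6.24 in PNX-dnFGFR. Single arrays stood out: 1 bright PNX array at 9.03 and 1 dim PNX-dnFGFR array at 7.41, the latter inside the bright range. From the top the means were 8.50 in bright PNX, 7.83 in bright SHAM, 7.54 in bright PNX-dnFGFR, 6.82 in dim PNX-dnFGFR, 6.33 in dim PNX and 5.99 in dim SHAM, and the first and the last pair of neighbours did not overlap. Loxl4 was higher in bright arrays by 1.83 ± 0.41 in SHAM (adjusted p = 0.014) and 2.16 ± 0.41 in PNX (adjusted p = 0.0062). In PNX-dnFGFR the difference was 0.72 ± 0.41 (adjusted p = 0.21), and without the dim array at 7.41 it was 1.30 (adjusted p = 0.046). The SHAM call was lost without either of 2 SHAM arrays, bright replicate 2 or dim replicate 1 (highest adjusted p over the alternatives 0.078). The second Loxl4 probe set, at 5.41 to 8.20, gave 1.37 as the mean over conditions (adjusted p = 0.00052) and 1.17 in SHAM (adjusted p = 0.053). On it both dim PNX-dnFGFR arrays, at 5.66 to 6.14, lay below the bright range. Its differences in dim arrays were -0.54 for PNX against SHAM and -0.26 for PNX-dnFGFR against SHAM, where the first probe set gave 0.34 and 0.83, none of them called.

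Among the lysyl hydroxylases the subsets differed little. Plod1, which hydroxylates lysines of the collagen helix, measured 7.74 and 8.05 in bright SHAM, 8.11 and 8.11 in bright PNX, and 8.14 and 7.78 in bright PNX-dnFGFR. Its dim arrays read 8.14 and 8.00 in SHAM, 8.39 and 8.34 in PNX, and 8.48 and 8.42 in PNX-dnFGFR. Dim PNX-dnFGFR (mean 8.45) and dim PNX (8.37) lay above the other groups, which followed from bright PNX (8.11) through dim SHAM (8.07) and bright PNX-dnFGFR (7.96) to bright SHAM (7.90) with overlap between neighbours. As the mean over conditions Plod1 was lower in bright arrays by -0.31 ± 0.09 (adjusted p = 0.023). Within conditions it passed in PNX-dnFGFR, at -0.49 ± 0.16 (adjusted p = 0.044), and at -0.30 without its bright replicate 2, with -0.18 in SHAM and -0.26 in PNX (adjusted p = 0.51 and 0.31). The call for the mean held in 16 of 20 alternative fits and was lost without replicate 1 of dim PNX, of either SHAM group, or replicate 2 of bright PNX-dnFGFR. The call in PNX-dnFGFR held in 9 of 21, 3 of them among the 12 that leave out an array (highest adjusted p 0.28). The second Plod1 probe set, with 5.14 to 6.58, gave -0.61 (adjusted p = 0.0065).

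Plod2 hydroxylates the lysines of the collagen telopeptides, the step that leads to the hydroxylysine-derived crosslinks of fibrotic tissue. It measured 8.54 and 8.02 in bright SHAM, 8.98 and 8.69 in bright PNX, and 9.69 and 9.04 in bright PNX-dnFGFR. In dim arrays it measured 8.73 and 8.59 in SHAM, 8.78 and 8.70 in PNX, and 8.87 and 8.69 in PNX-dnFGFR. The bright groups stood in the order SHAM, PNX, PNX-dnFGFR without overlap, at means of 8.28, 8.84 and 9.37, and the dim groups lay together at 8.66 to 8.78, between bright SHAM and bright PNX. The subset difference as the mean over conditions was 0.10 ± 0.14, with a 95% interval of -0.21 to 0.41 (adjusted p = 0.57). By condition it was -0.38 ± 0.24 for SHAM (adjusted p = 0.31), 0.10 ± 0.24 for PNX (adjusted p = 0.82), and 0.59 ± 0.24 for PNX-dnFGFR (adjusted p = 0.085).

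Plod3 adds sugars to hydroxylysine besides hydroxylating lysine. It read 10.10 and 10.04 in bright SHAM, 9.91 and 10.26 in bright PNX, and 10.17 and 10.14 in bright PNX-dnFGFR. The dim arrays read 9.81 and 9.82 in SHAM, 9.94 and 9.87 in PNX, and 9.92 and 9.92 in PNX-dnFGFR. Bright means, 10.07 to 10.15, lay above dim means, 9.82 to 9.92, although 1 bright PNX array fell within the dim range. The difference of 0.22 ± 0.08 passed narrowly (adjusted p = 0.047), and it stayed called in 6 of 20 alternative fits, 1 of them among the 12 that leave out an array (highest adjusted p 0.11). No single condition passed, with differences of 0.26 for SHAM, 0.18 for PNX, and 0.23 for PNX-dnFGFR.

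P4ha2 encodes a catalytic subunit of collagen prolyl 4-hydroxylase, and was the one prolyl hydroxylase of the family that was measured. It measured 7.89 and 8.27 in bright SHAM, 8.27 and 8.32 in bright PNX, and 8.38 and 8.00 in bright PNX-dnFGFR. In dim arrays it measured 6.96 and 7.47 in SHAM, 8.03 and 7.86 in PNX, and 7.67 and 7.42 in PNX-dnFGFR. Bright PNX-dnFGFR overlapped both other bright groups, while dim PNX lay above the other dim arrays and reached the lower bright values. From bright PNX (8.30) the means ran through bright PNX-dnFGFR (8.19), bright SHAM (8.08), dim PNX (7.95) and dim PNX-dnFGFR (7.55) to dim SHAM (7.21), and only dim PNX and dim PNX-dnFGFR were neighbours without overlap. P4ha2 was higher in bright arrays by 0.87 ± 0.22 in SHAM (adjusted p = 0.022) and 0.64 ± 0.22 under PNX-dnFGFR (adjusted p = 0.046). The difference in PNX was 0.35 ± 0.22 (adjusted p = 0.31). Leaving out bright replicate 2 or dim replicate 1 of SHAM ended that condition's call (highest adjusted p over the alternatives 0.14). The call in PNX-dnFGFR held in 9 of 21 alternative fits, 4 of them among the 12 that leave out an array (highest adjusted p 0.25).

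Counted within conditions, 4 of the 9 genes were higher and 1 lower in bright SHAM arrays, against 11.5% and 7.53% of all genes. In PNX 3 were higher and 0 lower, against 11.4% and 7.07%. In PNX-dnFGFR 3 were higher and 1 lower, against 21% and 13.5%. Loxl2 and Loxl3 were the members called in all 3 conditions. Markers of other cells also differed between the subsets as the mean over conditions, where 28.5% of all genes were higher and 19.3% lower. Of 7 tested smooth muscle and pericyte markers 4 were higher and 1 lower in bright arrays, with list means of 6.58 to 6.95 on bright and 5.19 to 5.63 on dim arrays. Of 6 mesothelial markers 3 were higher and 0 lower, with list means of 5.15 to 7.87 and 4.59 to 6.33. Of 10 macrophage and dendritic markers 0 were higher and 3 lower, of 4 lymphocyte markers 0 and 2, of 6 endothelial markers 1 and 2, and of 8 epithelial markers 0 and 1. Lymphocyte list means lay at 4.34 to 4.86 on bright and 4.94 to 5.48 on dim arrays. List means take in every marker with a probe set, tested or not: 8 smooth muscle and pericyte, 7 mesothelial and 6 lymphocyte markers. In such sorted bulk samples, fewer cells of a type and less RNA per cell cannot be told apart, and the part of these other cells in the differences was not tested. For Loxl4, the bright PNX array at 9.03 had the lowest mesothelial mean of the bright arrays, 5.15, and the other bright PNX array, with Loxl4 at 7.96, had the highest, 7.87. These values cover 2 arrays, 1 gene and 1 list, and whether mesothelial cells bear on Loxl4 was not tested.

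**Figure D2:**
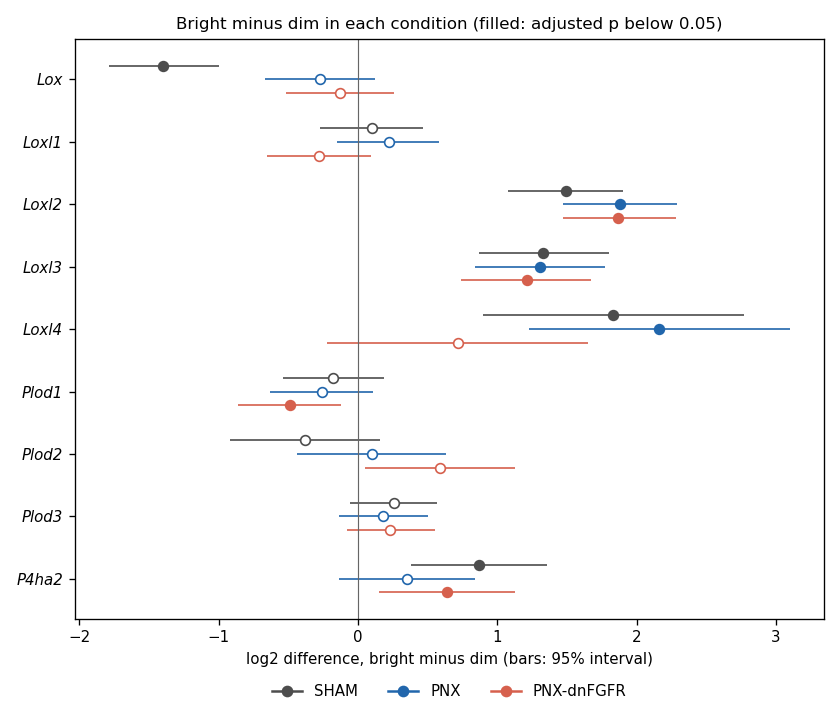
Log2 difference of bright minus dim arrays (x axis) for each gene (y axis) in SHAM, PNX and PNX-dnFGFR, each from 2 against 2 arrays, with 95% intervals from limma and filled points at an adjusted p below 0.05. Loxl2 and Loxl3 lie to the right in all 3 conditions, Lox lies at -1.40 in SHAM and near 0 in the others, and Loxl4 lies at 2.16 in PNX and 0.72 in PNX-dnFGFR.

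The next comparison asked what changed when the lung regrew after pneumonectomy. In bright arrays the 9 genes all had PNX means above SHAM means, with the highest differences for Lox (0.90 ± 0.17), Loxl4 (0.67 ± 0.41), Loxl2 (0.56 ± 0.18) and Plod2 (0.56 ± 0.24), but limma called none of them. Without bright PNX replicate 2, the Loxl4 difference was 0.14. Lox had an unadjusted p of 0.00052 and an adjusted p of 0.3, Loxl2 0.012 and 0.52, and Plod2 0.044 and 0.59. Those 3 were the members at an unadjusted p below 0.05, as were 912 of all genes. Only 0.00903% of genes, 1 gene, were called in either direction. The 2 PNX arrays lay above the 2 SHAM arrays for 6 of the 9 genes (Lox, Loxl2, Loxl4, Plod1, Plod2 and P4ha2, the last by less than the second decimal), against 21.2% of all genes. The median difference of the 9 genes was 0.22, against 0.02 over all genes.

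In dim arrays 0 of the 9 genes were called for PNX against SHAM, where 0.0452% of genes were. P4ha2 had the largest difference, 0.74 ± 0.22, with both PNX arrays above both SHAM arrays (unadjusted p = 0.0077, adjusted p = 0.24). It was the 1 member at an unadjusted p below 0.05, as were 1346 of all genes. Lox differed by -0.22 ± 0.17 and Loxl2 by 0.17 ± 0.18. As the mean over both subsets 0 of 9 passed, where 0.144% of genes did, and 3 had an unadjusted p below 0.05, as did 1787 of all genes. The 3 members were P4ha2 at 0.48 ± 0.15 (adjusted p = 0.19), Loxl2 at 0.37 ± 0.13 (adjusted p = 0.21) and Lox at 0.34 ± 0.12 (adjusted p = 0.22). The PNX effect on Lox was 1.12 ± 0.25 larger in bright than in dim arrays, with an unadjusted p of 0.0013 and an adjusted p of 0.77. No gene was called for that difference (0%), 495 had an unadjusted p below 0.05, and Lox was the only member among them.

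Animals with the dominant-negative receptor, in which the series' text says regrowth is inhibited, were then set against PNX. In bright arrays limma called 0 of the 9 genes, where 0.00903% of all genes were called. Without bright PNX replicate 1, 429 genes were called and still 0 of the 9. The 3 members at an unadjusted p below 0.05, as were 1390 of all genes, were Loxl4 at -0.96 ± 0.41 (adjusted p = 0.38), Loxl1 at -0.42 ± 0.16 (adjusted p = 0.34) and Lox at 0.41 ± 0.17 (adjusted p = 0.37). Each of these values moved with 1 array. Without bright PNX replicate 2 Loxl4 was at -0.43 (adjusted p = 0.94) and Loxl1 at -0.19 (adjusted p = 0.92). Lox was at 0.26 when bright PNX-dnFGFR replicate 1 was left out. Plod2 differed by 0.53 ± 0.24 (adjusted p = 0.4) and Loxl2 by 0.25 ± 0.18 (adjusted p = 0.64), so the means of Lox, Loxl2 and Plod2 were not lower with the dominant-negative receptor than after PNX alone.

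In dim arrays limma called 0 of 9 for PNX-dnFGFR against PNX, and none at an unadjusted p below 0.05. Among all genes 0% were called and 863 had an unadjusted p below 0.05. The largest differences were Loxl4 at 0.49 ± 0.41, which was -0.10 without dim PNX-dnFGFR replicate 1, and P4ha2 at -0.40 ± 0.22. As the mean over subsets 0 of 9 were called, again against 0% of genes (129 genes without bright PNX replicate 1), with 1384 genes and 1 member, Lox at 0.34 ± 0.12 (adjusted p = 0.31), at an unadjusted p below 0.05. For Loxl4 the effect was lower in bright than in dim arrays by -1.45 ± 0.59 (unadjusted p = 0.035, adjusted p = 0.57). Without dim PNX-dnFGFR replicate 1 that value was -0.86, and without bright PNX replicate 2 it was -0.91. Loxl4 was the 1 member at an unadjusted p below 0.05 for this difference, where limma called 0% of genes and 909 had such a p.

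PNX-dnFGFR against SHAM gave calls in the bright arrays. Lox was higher by 1.31 ± 0.17, a 2.49-fold difference (adjusted p = 0.01), Plod2 by 1.09 ± 0.24, 2.12-fold (adjusted p = 0.038), and Loxl2 by 0.81 ± 0.18, 1.76-fold (adjusted p = 0.039). That made 3 of 9 genes higher, against 2.6% of all genes called higher. The 2 PNX-dnFGFR arrays lay above the 2 SHAM arrays for 4 of the 9 genes (Lox, Loxl2, Plod2 and Plod3), against 32% of all genes. The other 6 genes had differences of -0.29 (Loxl4) to 0.11 (P4ha2), and the median of the 9 was 0.08, against 0.02 over all genes. This comparison shares its SHAM arrays with PNX against SHAM, so the values of the same genes there are not independent of these.

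The second probe sets of Lox (1.45, adjusted p = 0.018) and Plod2 (1.07, adjusted p = 0.048) were called too. Lox stayed called in 20 of 21 alternative fits, and was lost without bright SHAM replicate 2 (adjusted p = 0.086). Loxl2 and Plod2 stayed called in 10 of 21 each, and the adjusted p reached 0.24 for both. Of the 12 fits that leave out an array, 2 called Loxl2 and 2 called Plod2. Among cell type markers, 2 of 9 fibroblast markers were lower in these PNX-dnFGFR arrays, Npnt (-1.34 ± 0.23) and Inmt (-0.70 ± 0.13), with list means of 9.55 to 9.68 against 9.82 to 9.87 in SHAM. The 6 tested endothelial markers had a median of -1.08 with 0 called, and list means, over all 8 with a probe set, of 4.99 to 5.03 against 5.39 to 5.67. The 6 tested mesothelial markers had a median of 0.77 with 0 called, and list means, over all 7 with a probe set, of 6.69 to 7.20 against 5.84 to 6.54. Their part in the differences was not tested.

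In dim arrays 0 of 9 genes were called for PNX-dnFGFR against SHAM, where 0.0181% of genes were. Members at an unadjusted p below 0.05, as were 1054 of all genes, were Loxl2 at 0.43 ± 0.18 (adjusted p = 0.5) and Plod1 at 0.38 ± 0.16 (adjusted p = 0.51). Lox differed by 0.05 ± 0.17 and Plod2 by 0.12 ± 0.24. As the mean over subsets Lox (0.68 ± 0.12, adjusted p = 0.04) and Loxl2 (0.62 ± 0.13, adjusted p = 0.046) were called higher, against 0.984% of genes, and Plod2 was at 0.60 ± 0.17 (adjusted p = 0.096). Those 2 calls were lost in most fits that leave out an array: 4 of 12 kept Lox and 2 of 12 kept Loxl2, with adjusted p up to 0.15 for each. The effect was larger in bright than in dim arrays by 1.27 ± 0.25 for Lox (unadjusted p = 0.00054, adjusted p = 0.093) and 0.97 ± 0.34 for Plod2 (unadjusted p = 0.018, adjusted p = 0.27). Neither difference passed, so it is not shown that the subsets responded differently. For this difference limma called 0.126% of all genes, and of the 9 genes these 2 had an unadjusted p below 0.05, as did 1401 of all genes.

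**Figure D3:**
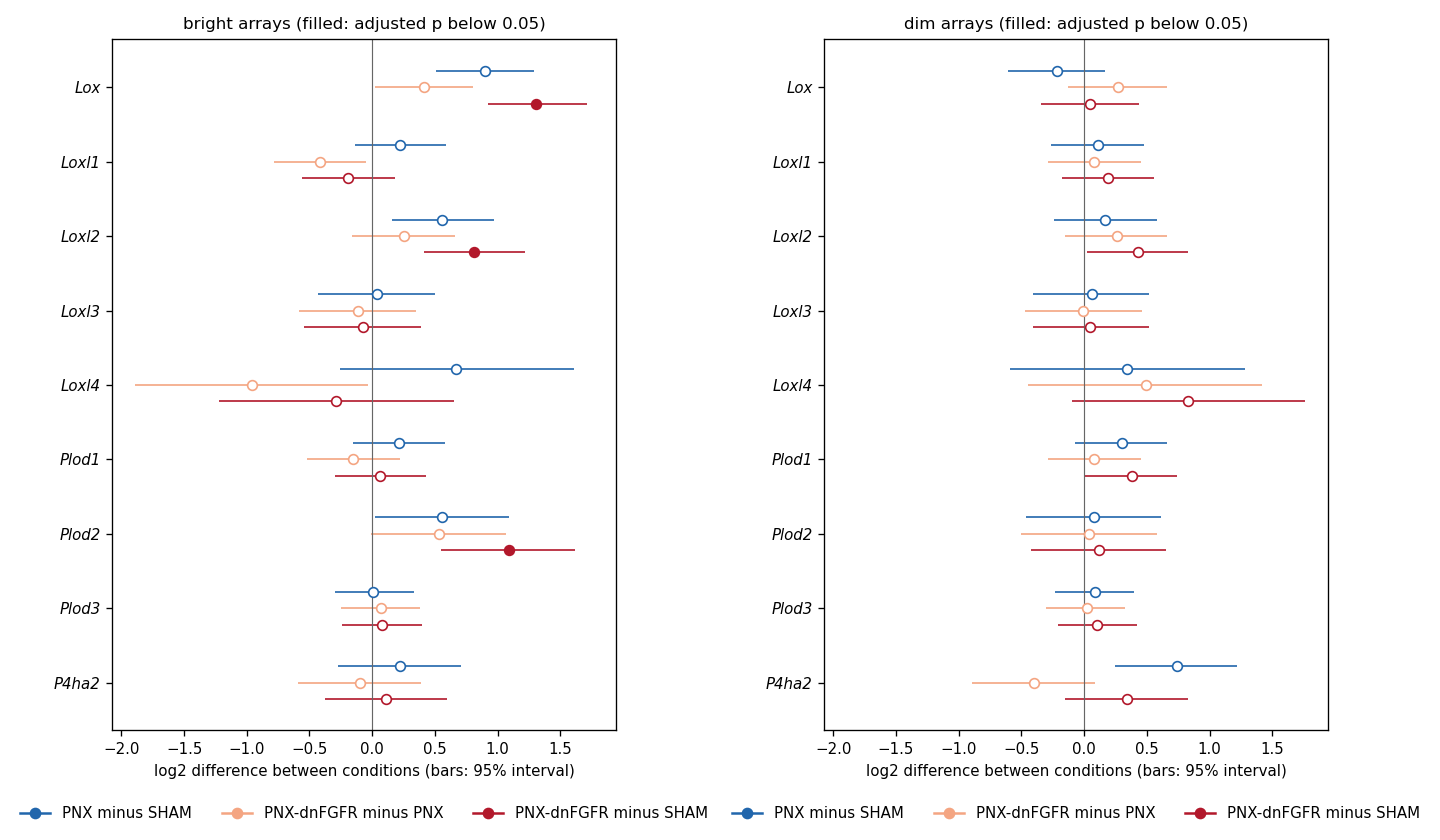
Log2 differences between conditions (x axis) for each gene (y axis), in bright arrays on the left and dim arrays on the right, each from 2 against 2 arrays, with 95% intervals from limma and filled points at an adjusted p below 0.05. The filled points are Lox, Loxl2 and Plod2 for PNX-dnFGFR against SHAM in bright arrays, at 1.31, 0.81 and 1.09, and no point is filled in dim arrays.

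The other genes of the pathway were taken from lists of the enzymes' partners, further processing steps, substrates and 2 kinds of signal known to act on these enzymes. The list counts for bright against dim stand beside 28.5% of all genes called higher and 19.3% called lower, and are given as counts only. Among partners in collagen folding and modification, 12 of 19 tested genes were higher and 3 lower in bright arrays as the mean over conditions, with a list median of 0.35 against 0.05 over all genes. P4ha3, a further prolyl 4-hydroxylase subunit, was higher by 2.94 ± 0.26 (adjusted p = 1.7e-05), with 5.58 to 7.73 in bright arrays and 3.52 to 4.84, under the filter's level, in dim arrays. Crtap, a partner of prolyl 3-hydroxylase, was higher by 1.19 ± 0.09, the collagen-related transcription factor Creb3l1 by 1.07 ± 0.10 and the prolyl isomerase Ppib by 0.68 ± 0.10. Colgalt2, which adds galactose to hydroxylysine, was lower by -1.21 ± 0.09, with its bright PNX and PNX-dnFGFR arrays at 4.40 to 4.53, under the filter's level. Tmem38b, an ion channel of the endoplasmic reticulum mutated in brittle bone disease, was lower by -1.14 ± 0.12.

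In procollagen processing and other crosslinking, 8 of 17 genes were higher and 4 lower, with a median of 0.28. Bmp1, the protease that trims procollagen and activates lysyl oxidase, was higher by 2.54 ± 0.19 (adjusted p = 5.6e-06), with 10.43 to 11.30 in bright and 7.59 to 8.69 in dim arrays. Pxdn, a peroxidase that forms the sulfilimine crosslinks of collagen IV, was higher by 1.37 ± 0.18. Postn, a scaffold for Bmp1 and collagen, was higher by 2.85 ± 0.14, with dim arrays at 4.24 to 4.71, under the filter's level. The fibril-binding proteoglycans Lum and Dcn were higher by 5.77 ± 0.13 and 5.05 ± 0.49, with Lum under that level in dim arrays. Pcolce2, an enhancer of procollagen trimming, was lower by -0.83 ± 0.08.

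Of 18 substrate genes 9 were higher and 3 lower, with a median of 0.19. Col5a3, a chain of the type V collagen that sets fibril size, was higher by 3.45 ± 0.28, and the microfibril genes Mfap5 and Mfap2 by 2.20 ± 0.11 and 2.17 ± 0.11. Mfap4, an elastic fibre protein, was lower by -0.74 ± 0.10. The collagen genes Col5a1, Col1a2 and Col5a2 were higher by 1.08 ± 0.11, 1.05 ± 0.15 and 0.84 ± 0.10. Smaller differences were found for Col1a1, Col3a1 and Eln. Col1a1 was higher by 0.41 ± 0.07 (adjusted p = 0.0013) and Col3a1 by 0.22 ± 0.08 (adjusted p = 0.047). Eln, the elastin gene, differed by 0.16 ± 0.09 (adjusted p = 0.16).

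Of 19 hypoxia response genes 6 were higher and 6 lower in bright arrays, with a median of 0.19. Egln3, an oxygen-sensing prolyl hydroxylase, was higher by 3.33 ± 0.61, with dim arrays at 2.57 to 4.05, under the filter's level. By condition it passed in PNX-dnFGFR, at 6.03 (adjusted p = 0.0022), with 1.77 for SHAM (adjusted p = 0.29) and 2.17 for PNX (adjusted p = 0.2). Epas1, which encodes HIF-2 alpha, was lower by -1.88 ± 0.12, the glycolytic regulator Pfkfb3 by -1.83 ± 0.14 and Vegfa by -1.64 ± 0.13. Of 13 TGF-beta response genes 8 were higher and 4 lower, with a median of 1.69. Cthrc1, a secreted protein of matrix-producing fibroblasts, was higher by 3.51 ± 0.14, with dim arrays at 2.55 to 3.24 and bright SHAM at 4.32 to 4.73, under the filter's level. Tgfbi was higher by 2.58 ± 0.20 and the ligand Tgfb3 by 2.43 ± 0.12. Ccn2, 1 of the 4 called lower, was at -0.74 ± 0.21 (adjusted p = 0.016).

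**Figure D4:**
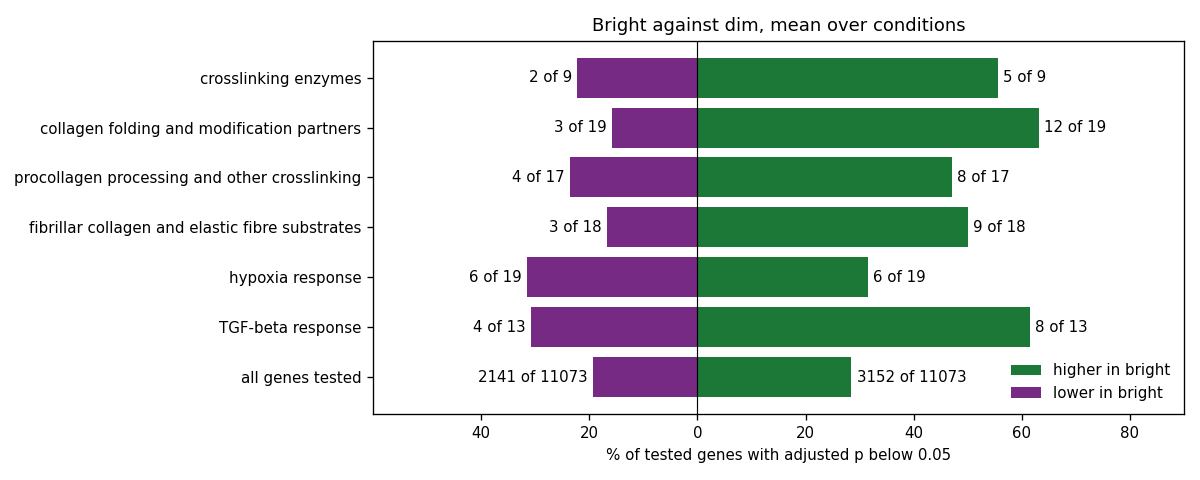
Share of tested genes called higher (green, right) or lower (purple, left) in bright than in dim arrays as the mean over conditions (x axis, %), for the crosslinking enzymes, the 5 lists and all genes (y axis), with counts at the bars. The enzymes have 5 of 9 higher and 2 of 9 lower, beside 12 and 3 of 19 folding partners and 6 and 6 of 19 hypoxia response genes.

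For PNX-dnFGFR against SHAM in bright arrays few of these genes passed, beside 2.6% of all genes called higher and 2.6% called lower. The folding partners had 1 higher and 1 lower of 19, P3h4 at 0.96 ± 0.21 (adjusted p = 0.038) and Colgalt2 at -0.69 ± 0.15 (adjusted p = 0.037), the latter with PNX-dnFGFR arrays under the filter's level. P3h4 encodes a member of the complex through which Plod1 acts on the collagen helix. The processing list had 2 higher and 1 lower of 17: the transglutaminase Tgm1 at 1.34 ± 0.26, Postn at 1.58 ± 0.24 and Pcolce2 at -0.97 ± 0.14. The substrates had Fbn2, a microfibril fibrillin, higher by 2.33 ± 0.47 over SHAM arrays at 3.35 and 3.37, under the filter's level, and Ltbp4, which helps elastin assemble, lower by -0.80 ± 0.15, of 18. The hypoxia list had hexokinase Hk2 at 1.21 ± 0.23, with SHAM arrays at 4.30 and 4.89, also under it, and Adm at -0.87 ± 0.17, of 19.

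Of the 13 TGF-beta response genes only Cthrc1 was called there, higher by 2.77 ± 0.24 (adjusted p = 0.0039), over SHAM arrays under the filter's level. It was also the only gene of the 5 lists called for PNX against SHAM in bright arrays, at 2.71 ± 0.24 (adjusted p = 0.0096). The substrates Col1a1 (0.15 ± 0.12), Col3a1 (0.18 ± 0.14) and Eln (-0.31 ± 0.15) did not pass for PNX-dnFGFR against SHAM in bright arrays, with adjusted p of 0.53, 0.5 and 0.25.

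Profiles most like those of the 4 genes with the widest range of group means were sought among 10595 other tested genes, by the root mean square difference of log2 signals centred on each gene's mean over the 12 arrays. For Loxl4 they were Tmem158 (0.37), Smoc1 (0.38) and Pltp (0.39). Loxl2 was closest to Pdlim5 and Tpbgl (0.19 each), followed by the tropomyosin gene Tpm2 (0.215). For Lox the nearest genes were Elovl6 (0.24), Pnpt1 (0.273) and Mvd (0.282). Loxl3 had the closest neighbours, Thbs3 (0.151), Fstl1 (0.157) and Cavin3 (0.162).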

How the data were processed

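The deposited values are log2 signals made by the authors with RMA (background correction, quantile normalization and a summary over probes), per the submitters' processing notes, which name no version. Per the labels' protocols, RNA of sorted cells was amplified over 25 cycles before hybridization. Of 45141 probe sets, 104 controls were left out, 28898 had 1 gene, 551 several and 15588 none. Probe sets with several genes, such as those shared by Gmppa and Plod1, were not used. Genes entered the tests if 2 or more arrays were above log2 5.101, which is the median over the whole table. A mean per group was fitted to each gene with limma (version 3.58.1, under R 4.3.3), and Benjamini-Hochberg adjustment ran over 11073 genes in each of 16 contrasts. The median SD was 0.196 after limma had drawn each gene's residual SD toward a common value. Errors printed after ± are standard errors from this fit. The fit takes the subsets as independent, although an animal may have given both. The genes, lists, markers and the rule for named genes (all members, up to 6 genes per list by the smallest adjusted p among those called, and Pdgfra, Acta2, Col1a1, Col3a1 and Eln) were chosen with earlier results of these data known. Not every gene that this rule allows is named: for bright against dim, Adm and Bambi are among those left out. Sftpc, Cdh1, Npnt, Inmt, Col1a2 and Ccn2 were named after their values were seen.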

Additional observations from a re-analysis of the deposited data

How the results depend on the processing

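Each value was refitted with no filter, a stricter filter (log2 6.762), values below the filter set to it, a variance trend, a second quantile normalization, probe sets averaged per gene, replicate blocks, only the groups compared, and each of the 12 arrays left out. Lox, Loxl2, Loxl3, Loxl4 and P4ha2 stayed called for bright against dim as the mean over conditions in 20 of 20 alternatives, and Plod1 in 16 of 20. The members called for bright against dim numbered 5 in SHAM (3 to 5 with an array left out) and 4 in PNX-dnFGFR (2 with no filter, 2 with only the groups compared, 2 to 4 with an array left out). For PNX-dnFGFR against SHAM they numbered 3 in bright arrays (1 with only the groups compared, 0 to 3 with an array left out) and 2 as the mean over subsets (1 with no filter, with the mean of probe sets or with only the groups compared, 0 to 2 with an array left out). For the difference of that effect between subsets the count went from 0 to 1 with a variance trend, which called Lox (adjusted p = 0.047). The labels give the arrays of a group the numbers 1 and 2. Deviations of same-numbered arrays from their group means correlated at 0.003 to 0.128 between bright and dim arrays of a condition, at 0.288 (PNX) and 0.347 (PNX-dnFGFR) between bright arrays and bright SHAM, at 0.065 between bright PNX and bright PNX-dnFGFR, and from -0.185 over all pairs of groups, so the numbers were not taken to pair the samples. With a replicate block by number, 6 members in place of 7 were called for bright against dim as the mean over conditions, Plod3 being lost, and 3 in place of 2, Plod2 being added (adjusted p = 0.045), for PNX-dnFGFR against SHAM as the mean over subsets. For bright against dim in PNX-dnFGFR the block gave 3 in place of 4: Plod2 was added (adjusted p = 0.03), and Plod1 (adjusted p = 0.056) and P4ha2 (adjusted p = 0.061) were lost. Of 144 member values, 49 changed sign in some fit while being called in none. Over all genes, those called for PNX-dnFGFR against SHAM numbered 576 in bright arrays (5 to 910 with an array left out) and 221 as the mean over subsets (119 with no filter, 457 with a variance trend, 7 to 495 with an array left out). For PNX-dnFGFR against PNX in bright arrays they went from 1 to 78 with values below the filter set to it, and to between 0 and 429 with an array left out; as the mean over subsets they went from 0 to between 0 and 129. For bright against dim they numbered 2107 in SHAM (1229 to 2267 with an array left out), 2042 in PNX (1110 to 2042, and 1270 with only the groups compared) and 3812 in PNX-dnFGFR (2429 to 3936). For the difference between subsets, they numbered 0 for PNX-dnFGFR against PNX (0 to 50) and 14 for PNX-dnFGFR against SHAM (0 to 95). With 2 arrays a group, their number limits the precision.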
